A study of Homo sapiens with 6 samples.

Results

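SPARC, fibronectin and the matricellular proteins form a group of secreted proteins that lie in the matrix around cells, and 10 of their genes are described here: SPARC, SPOCK1, FN1, TNC, THBS1, TGFBI, SPP1, FBN1, BGN and DCN. They are 10 of the 19775 genes with a probe set of their own on the arrays. The genes were chosen by name with the differences between the lines on these arrays already known, so their differences are given as a description without a test. All 36 probe sets annotated to exactly 1 of these genes are included, whatever their level. PC9 is a human lung adenocarcinoma line sensitive to gefitinib, a drug that blocks the kinase activity of EGFR. The resistant line PC9/gef was obtained from PC9 by continuous exposure to rising concentrations of gefitinib, and whether the drug was present when RNA was taken is not given in the sources used here. RNA of 3 PC9 samples and 3 PC9/gef samples, grown in the same serum-containing medium, was hybridized to Affymetrix U133 Plus 2.0 arrays with 54675 probe sets, 1 array per sample, to find genes that differ with gefitinib resistance. The labels call the samples biological replicates of a line but do not say how they were separated, so p-values measure only the spread between these samples, which may be technical, and each condition is represented by 1 line.

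Fibronectin is an adhesive glycoprotein that cells assemble into fibrils through integrins, and it is a structural part of the matrix around fibroblasts and many tumour cells. Matricellular proteins such as SPARC, tenascin-C, thrombospondin-1 and osteopontin are secreted into the same matrix but mainly modulate how cells attach, migrate and respond to growth factors. Fibrillin-1 builds the microfibrils that carry latent TGF-beta, and biglycan and decorin are small leucine-rich proteoglycans made mostly by connective tissue cells.

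Values are on the log2 scale as deposited, where a step of 1 is a 2-fold difference, and were compared between lines within a probe set only. Arrays of a line correlated at 0.9992 or above over all probe sets, and arrays of different lines at 0.9944 or below. The background level was set at 2.65, the 95th percentile over 135 probe sets of olfactory receptor genes, and a mean no higher than this was called background. By this measure 11955 of the 19775 genes lay above background in at least 1 line. The label of a lung epithelial tumour line was checked against markers. Of 10 lung epithelial markers 8 lay above background, among them EPCAM and the keratins KRT7, KRT8, KRT18 and KRT19, while the lung lineage genes NKX2-1 and NAPSA lay at background in both lines. By limma at an adjusted p under 0.05, 2 of the 8 were higher and 3 lower in PC9/gef. That is 25% and 37.5%, beside 23.8% and 22.2% of all genes above background. The mean over the list was 10.11 to 10.13 on the PC9 arrays and 10.09 to 10.13 on the PC9/gef arrays.

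Of the 36 probe sets, 16 lay above background in both lines and 20 lay at background in both. On the 16, PC9/gef was higher by its mean on 13 and lower on 3. The 13 include 4 probe sets of FN1 and 4 of THBS1, so they are not separate genes, and nothing is read from this count. Read gene by gene, each from its brightest probe set by the mean of the 6 arrays, SPARC, FN1, TNC and SPOCK1 were over 2-fold higher in PC9/gef, TGFBI and THBS1 were higher by less, SPP1 and FBN1 were slightly lower, and BGN and DCN were at background. The 4 genes over 2-fold higher stand beside 1.54% of all genes with such a difference, and the 0 members over 2-fold lower beside 1.34%, from which nothing is read, since the genes were selected on this difference. The arrays of the lines did not overlap for 6 members higher in PC9/gef, where 31.2% of genes above background did the same, and for 2 members lower, where 33.8% did. The median log2 difference was 0.68 over the 10 genes and -0.00065 over all genes. Over the 8 members above background it was 0.92, against -0.0098 over all genes above background. From the counts without overlap and the medians nothing is read either, since the same selection lies behind them.

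**Figure D1:**
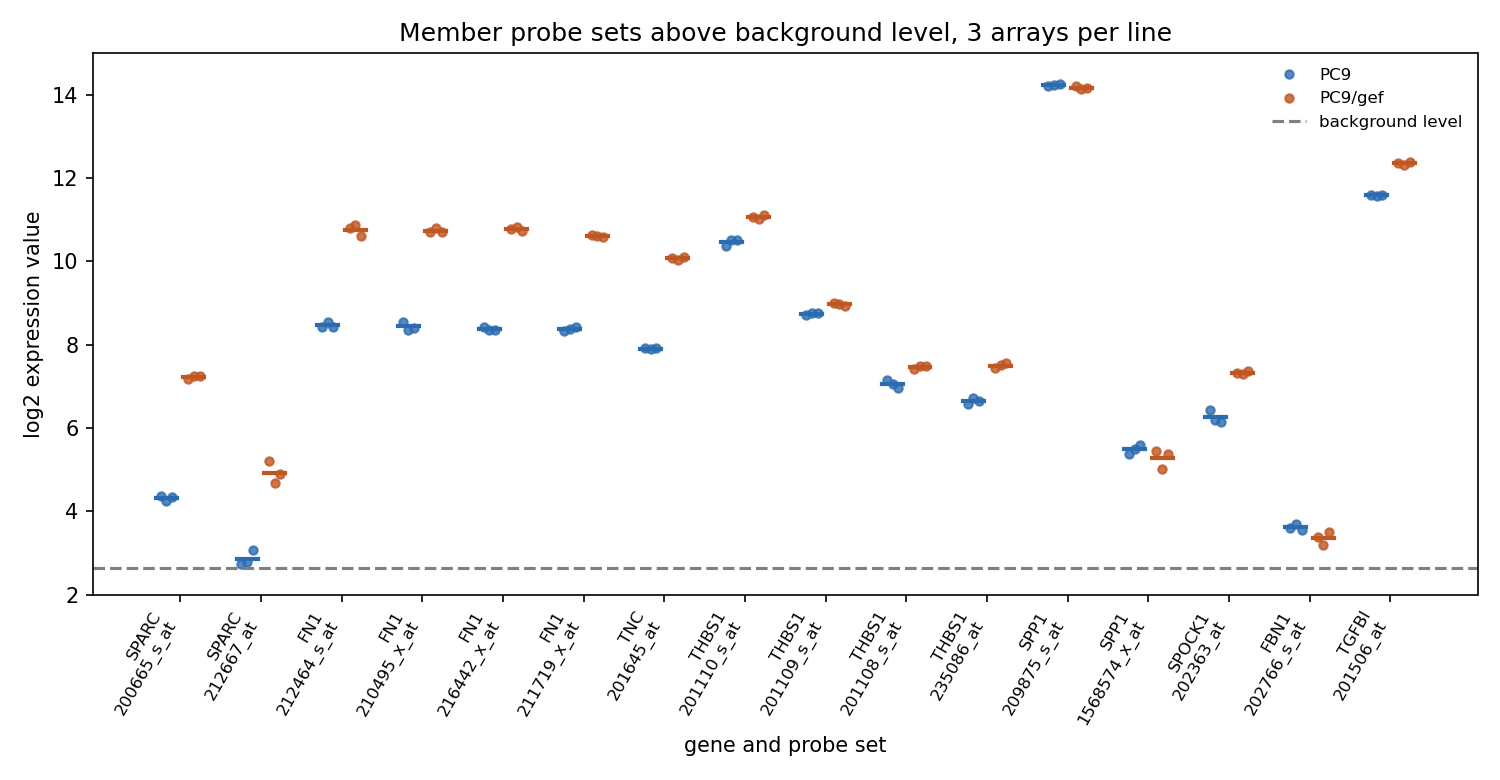
Each point is the log2 expression value (vertical axis) of 1 array on 1 of the 16 probe sets above background, PC9 in blue and PC9/gef in orange, with a bar at the mean of 3 arrays and a dashed line at the background level of 2.65. The PC9/gef points of SPARC, FN1 and TNC lie at least 1.59 units above those of PC9, while the points of SPP1 1568574_x_at overlap.

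SPARC, also called osteonectin, is a collagen-binding glycoprotein that loosens cell attachment and affects collagen deposition. On probe set 200665_s_at the PC9 arrays gave 4.36, 4.26 and 4.33 and the PC9/gef arrays 7.18, 7.24 and 7.24. All PC9/gef arrays were above all PC9 arrays, and the narrowest gap between the lines was 2.82. The log2 difference was 2.91 ± 0.037 (SE, n = 3 per line), or 7.49-fold. It was the 12th largest rise among the 19775 genes. The second SPARC probe set, 212667_at, gave 2.72, 2.79 and 3.08 in PC9 and 5.21, 4.67 and 4.90 in PC9/gef. Its PC9 arrays lay just above the background level, with a log2 difference of 2.06 ± 0.19 (SE, n = 3 per line), or 4.18-fold, and values this close to background may understate a difference. Both SPARC probe sets thus put PC9 low and PC9/gef higher.

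SPOCK1, or testican-1, is a proteoglycan that shares the SPARC-like calcium-binding domain. Its single probe set, 202363_at, gave 6.42, 6.19 and 6.14 in PC9 and 7.32, 7.29 and 7.36 in PC9/gef. The lines did not overlap, and PC9/gef was 2.10-fold higher, a log2 difference of 1.07 ± 0.089 (SE, n = 3 per line). This is close to the 2-fold line, and leaving out each array in turn gave log2 differences from 1.01 to 1.15.

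FN1 encodes fibronectin, which is bound by the integrin of the alpha-5 and beta-1 chains and by integrins of the alpha-v chain. Probe set 212464_s_at gave 8.41, 8.55 and 8.43 in PC9 and 10.79, 10.87 and 10.61 in PC9/gef. The lines were separated by at least 2.05, and the log2 difference was 2.29 ± 0.090 (SE, n = 3 per line), or 4.89-fold, the 36th largest rise among all genes. On 210495_x_at the log2 difference was 2.30, on 216442_x_at it was 2.41 and on 211719_x_at it was 2.24. These 4 probe sets carry the suffixes of sets that can match several transcripts, and they may read the same fibronectin RNA, so their likeness is no separate evidence. The other 3 FN1 probe sets, 1558199_at, 214701_s_at and 214702_at, lay between 2.36 and 2.39 in line means and thus at background. Which transcripts of FN1 they target was not analysed here. The log2 difference was 1.32 with the mean over all 7 probe sets and -0.00098 on the set left without those named _x_at or _s_at, which lay at background.

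**Figure D2:**
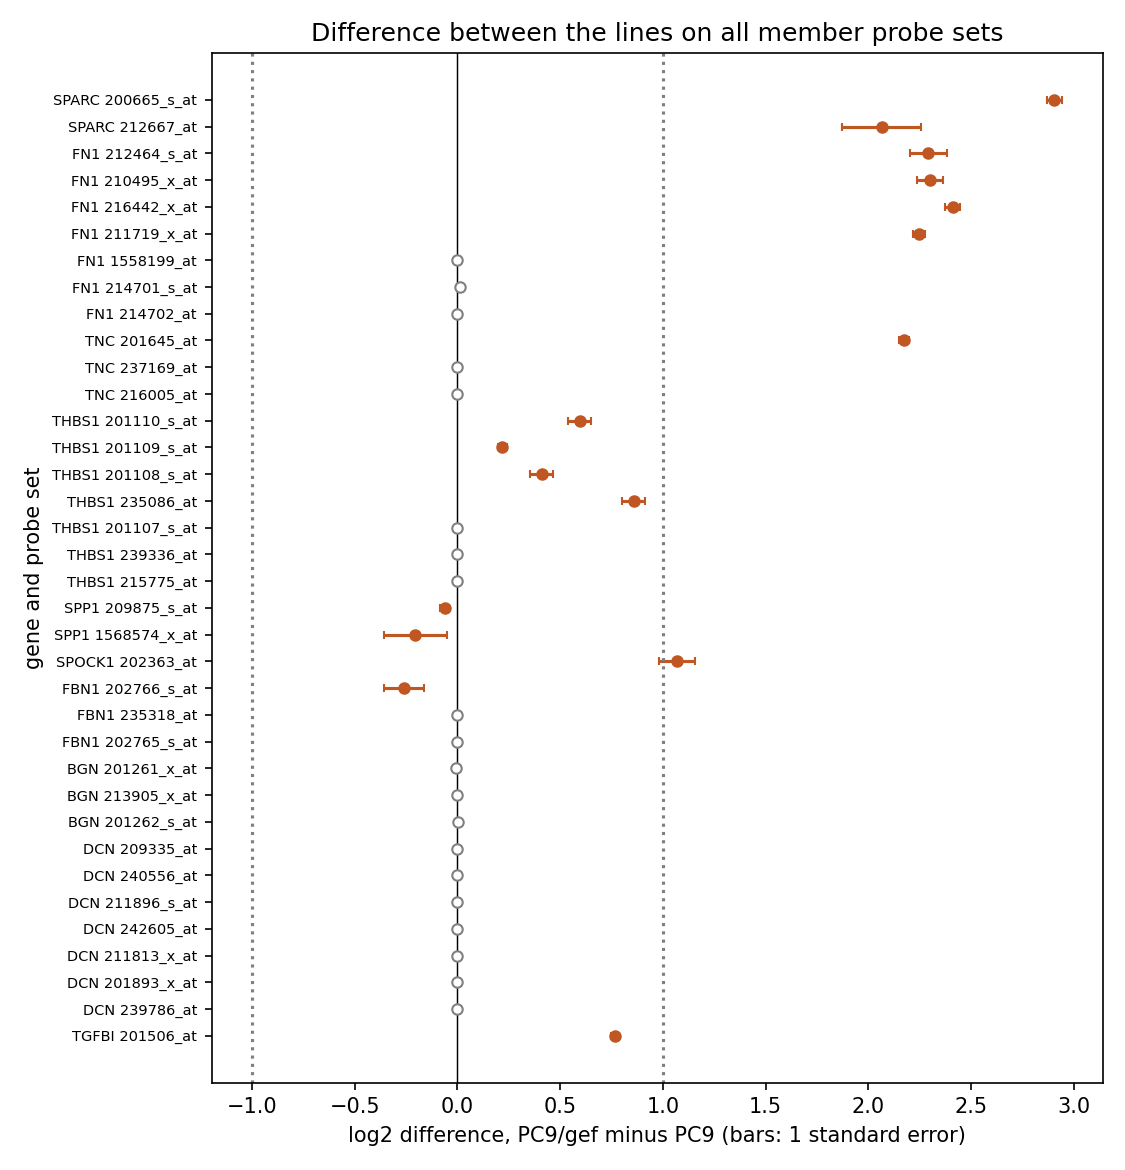
The log2 difference of PC9/gef minus PC9 (horizontal axis) is shown for each of the 36 probe sets, filled where the probe set lay above background and open where it lay at background, with bars of 1 standard error and dotted lines at 2-fold. The 4 upper FN1 probe sets lie between 2.24 and 2.41, and all open points lie within 0.013 of 0.

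TNC encodes tenascin-C, a large hexameric matricellular protein that is sparse in adult tissue and abundant around wounds and tumours. Probe set 201645_at gave 7.91, 7.89 and 7.91 in PC9 and 10.07, 10.03 and 10.11 in PC9/gef. The arrays of each line lay close together and the lines were 2.12 apart at the nearest. The log2 difference was 2.17 ± 0.024 (SE, n = 3 per line), or 4.50-fold, the 44th largest rise. The remaining TNC probe sets, 237169_at and 216005_at, were at background, at 2.29 to 2.33 in both lines, so tenascin-C was read from 1 probe set, and the mean over all 3 gave 0.72.

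THBS1 encodes thrombospondin-1, an adhesive matricellular protein that binds CD47 and CD36 and can activate latent TGF-beta. On 201110_s_at the PC9 arrays gave 10.36, 10.52 and 10.50 and the PC9/gef arrays 11.05, 11.01 and 11.10. The lines did not overlap, and PC9/gef was 1.51-fold higher, a log2 difference of 0.60 ± 0.056 (SE, n = 3 per line). The other THBS1 probe sets above background agreed in direction and differed in size. The log2 difference was 0.22 on 201109_s_at, 0.41 on 201108_s_at and 0.86 on 235086_at, the last of which is 1.81-fold. None of the 4 reached 2-fold. The probe sets 201107_s_at, 239336_at and 215775_at were at background.

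TGFBI, the TGF-beta-induced protein, is a secreted protein with fasciclin domains that binds collagens and integrins. Its probe set 201506_at gave 11.60, 11.57 and 11.58 in PC9 and 12.36, 12.31 and 12.37 in PC9/gef. All PC9/gef arrays were higher, by 0.77 ± 0.019 on the log2 scale (SE, n = 3 per line), or 1.70-fold. This is well beyond the spread of the arrays but below 2-fold, and the gene stood at place 522 among the rises.

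SPP1 encodes osteopontin, a secreted phosphoprotein that binds CD44 and integrins. Its probe set 209875_s_at gave 14.21, 14.24 and 14.24 in PC9 and 14.20, 14.13 and 14.17 in PC9/gef. PC9/gef was lower by 0.062 on the log2 scale (SE 0.022, n = 3 per line), or 1.04-fold, and the lines were apart by only 0.012. The second probe set, 1568574_x_at, gave 5.37, 5.49 and 5.60 in PC9 and 5.45, 5.00 and 5.39 in PC9/gef, and here the lines overlapped. Neither SPP1 probe set had a difference near those of SPARC, FN1 or TNC.

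FBN1 encodes fibrillin-1. Its probe set 202766_s_at gave 3.59, 3.69 and 3.55 in PC9 and 3.37, 3.19 and 3.49 in PC9/gef. The lowest PC9 array lay 0.058 above the highest PC9/gef array, and the log2 difference was -0.26 ± 0.098 (SE, n = 3 per line), or 1.20-fold lower in PC9/gef. The lines were close, the level was low, and the probe sets 235318_at and 202765_s_at were at background.

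BGN and DCN encode biglycan and decorin, which bind collagen and growth factors, and biglycan can also engage TLR2 and TLR4. All 3 BGN probe sets lay between 2.16 and 2.55 and all 7 DCN probe sets between 2.10 and 2.53, so neither gene was seen above background in either line. Over all 20 member probe sets at background the largest difference between the lines was 0.013 on the log2 scale. Of these, 17 were minutely lower in PC9/gef, and the arrays of the lines were apart on 11, although no signal above background lies behind them. A lack of overlap between arrays is thus no sign of expression at this level.

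Sequence upstream of the 3 members with the largest differences is shown because their RNA differed most. RefSeq sequence of GRCh38.p14 held a promoter entry for 8 of the 10 members, all but SPOCK1 and DCN. The sequences below are the 250 bases before the annotated start, on the minus strand of the chromosome, at chr5:151686916-151687165 for SPARC, chr2:215436069-215436318 for FN1 and chr9:115118158-115118407 for TNC. Capitals mark matches on either strand to 7 motifs.
SPARC: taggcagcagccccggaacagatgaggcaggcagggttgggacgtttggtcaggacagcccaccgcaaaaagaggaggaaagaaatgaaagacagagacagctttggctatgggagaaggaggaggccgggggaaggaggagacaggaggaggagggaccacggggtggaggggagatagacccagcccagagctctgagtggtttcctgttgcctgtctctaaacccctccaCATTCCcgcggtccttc
FN1: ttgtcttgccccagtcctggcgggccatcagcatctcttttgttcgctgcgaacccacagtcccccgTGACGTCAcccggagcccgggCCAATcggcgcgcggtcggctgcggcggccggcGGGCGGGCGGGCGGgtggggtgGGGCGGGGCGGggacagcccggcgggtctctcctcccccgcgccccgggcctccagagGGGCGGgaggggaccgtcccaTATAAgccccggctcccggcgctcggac
TNC: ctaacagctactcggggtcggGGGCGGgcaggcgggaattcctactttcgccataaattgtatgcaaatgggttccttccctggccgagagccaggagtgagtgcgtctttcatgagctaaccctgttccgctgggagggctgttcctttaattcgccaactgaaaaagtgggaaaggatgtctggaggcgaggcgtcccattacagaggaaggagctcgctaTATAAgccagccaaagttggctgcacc
The motifs searched were the TATA element TATAA, the CCAAT box CCAAT, the GC box GGGCGG, the AP-1 motif TGANTCA, the cyclic AMP response element TGACGTCA, the TEAD motif GGAATG and CACCTG, an E-box that SLUG can bind. FN1 held TATAA 28 bases and TNC 27 bases before the start, as did 18.9% of 35116 promoters anywhere in the window. FN1 also held the cyclic AMP response element, at 183 bases, which 1.65% of promoters hold. The CCAAT box, at 162 bases, occurs in 32.0% of promoters. The GC box, found in 42.6% of promoters, matched 6 times in FN1, where some matches overlap each other, and once in TNC. SPARC held none of these and had a single match, to the TEAD motif on the opposite strand 17 bases before the start, a motif that 11.9% of promoters hold. THBS1, at 46 bases, and FBN1, at 58 bases, held the TEAD motif as well. No member promoter held the AP-1 motif, present in 6.57%, and CACCTG, present in 17.5%, was found in SPP1 alone among the 8. The 3 promoters thus shared no motif of the list between all of them, and a match describes letters in the window and not a bound site.

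The genes that lie beside the members on the chromosome were also read, 10 measured protein-coding genes on each side, a window chosen after the members' values were seen. Of all genes above background, 23.8% were higher and 22.2% lower in PC9/gef by limma at an adjusted p under 0.05. Around SPARC, on chromosome 5, 14 of 20 neighbours were above background, and of these 7 were higher, 6 did not pass and 1 was lower. Those higher were ANXA6, an annexin (log2 difference 1.16, limma adjusted p = 0.00028), GPX3, a secreted glutathione peroxidase (0.97, adjusted p = 0.00021), CCDC69 (0.75), SLC36A1 (0.67), TNIP1 (0.52), ATOX1 (0.42) and G3BP1 (0.17). SAP30L was the gene lower, by 0.33. The median log2 difference of the 14 was 0.19, against -0.0098 over all genes above background. None of the 20 had a difference as large as that of SPARC. Nothing is read from this, since SPARC was chosen with its difference known.

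Around FN1, on chromosome 2, 14 neighbours were above background, 2 of them higher and 2 lower, with a median log2 difference of -0.013. The nearest genes on either side did not pass the test: ATIC differed by 0.037 and MREG by -0.076. Both values are small beside the 2.29 of FN1, which was likewise chosen with its difference known.

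Around TNC, on chromosome 9, 14 neighbours were above background, 4 higher and 2 lower, with a median of 0.13. TNFSF15, a TNF family cytokine gene 2 places from TNC, was higher by 2.10 on the log2 scale (limma adjusted p = 0.00013), about as much as TNC. PAPPA, the next gene on the other side, was lower by 0.53. Around SPOCK1, 10 neighbours were above background, 2 higher and 2 lower. TGFBI is itself one of those neighbours, 4 places from SPOCK1. For TGFBI the counts were also 2 higher and 2 lower of 10, and PITX1, a homeobox gene, was lower by 1.26. Around THBS1, on chromosome 15, 7 of 16 neighbours above background were higher and 3 lower, with a median of 0.17. Around DCN, which itself lay at background, 9 of 14 neighbours above background were higher and 1 lower, with a median of 0.26. The counts were 5 higher and 2 lower of 14 around FBN1, 3 and 3 of 14 around SPP1, and 3 and 4 of 13 around BGN, where SLC6A8 was higher by 2.29.

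**Figure D3:**
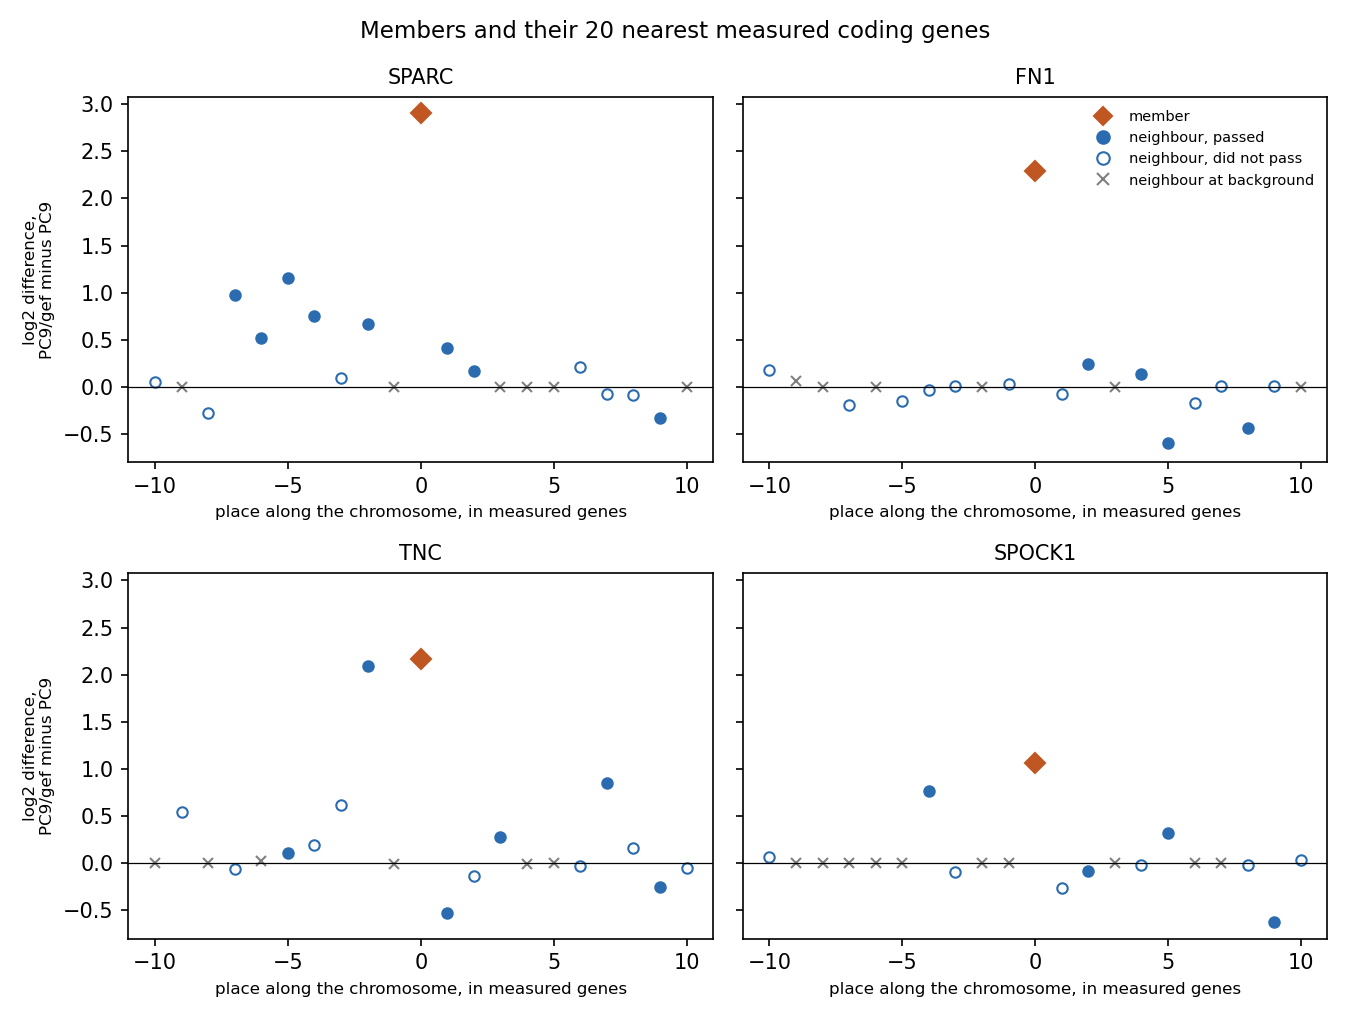
Each panel places 1 member at 0 with its 10 nearest measured coding genes on either side (horizontal axis, in places along the chromosome) and shows log2 differences of PC9/gef minus PC9 (vertical axis), filled where limma's adjusted p was under 0.05, open where it was not, and crosses where the gene was at background. Filled points above 0 number 7 around SPARC and 2 around FN1, and TNFSF15 lies at 2.10 beside TNC.

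The relatives of the members were read from lists of gene families. Of 6 relatives of SPARC, only FSTL1, a secreted follistatin-like glycoprotein, was above background. It rose by 0.66 ± 0.038 on the log2 scale (SE, n = 3 per line), or 1.58-fold (limma adjusted p = 0.00068), and by 0.19 with the mean over all its probe sets (adjusted p = 0.012). SPARCL1, SMOC1, SMOC2, SPOCK2 and SPOCK3 lay at background in both lines, so SPARC and SPOCK1 were the genes of this family read above background besides FSTL1.

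Among 14 other thrombospondins, tenascins and CCN proteins, 6 were above background, and their median log2 difference was 0.23. By limma 2 of the 6 rose and 0 fell (3 and 1 at an unadjusted p under 0.05). That is 33.3% higher and 0% lower, beside 23.8% and 22.2% of all genes above background. CCN1, an integrin-binding matricellular protein formerly called CYR61, rose by 0.67, or 1.60-fold (limma adjusted p = 0.00072). CCN3 rose by 0.32, or 1.25-fold (adjusted p = 0.027), a call that was lost on leaving out any array except PC9/gef replicate 2 (adjusted p = 0.078 to 0.094). With the mean over all its probe sets it rose by 0.19. CCN2, formerly CTGF, differed by 0.20 (adjusted p = 0.058) and did not pass. Tenascin-C was the tenascin read above background, since TNR, TNXB and TNN lay at background. Periostin, POSTN, stood at 2.66 in PC9 and 2.65 in PC9/gef, at the edge of background.

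The 11 other leucine-rich proteoglycans were like BGN and DCN: 10 lay at background, and ECM2, the exception, differed by -0.78 without passing (limma adjusted p = 0.22), nor did it pass at an unadjusted p under 0.05. Of 17 microfibril and elastic fibre proteins, which work with fibrillin-1, 9 were above background, 2 rose, 4 fell and 3 did not pass, and the median log2 difference was -0.24. EFEMP1, or fibulin-3, fell by 1.13, a 2.19-fold difference (adjusted p = 0.00026). MFAP5, a microfibril glycoprotein, fell by 0.91 (adjusted p = 0.00023), FBLN1, or fibulin-1, fell by 0.77 (adjusted p = 0.0014), and LTBP1, which anchors latent TGF-beta to the matrix, fell by 0.59 (adjusted p = 0.0072). Thus 4 of 9, or 44.4%, of these genes were lower in PC9/gef beside 22.2% of all genes above background, and those over 2-fold lower numbered 1. The 2 that rose were 22.2% of the 9, beside 23.8% of all genes above background. Without PC9/gef replicate 2, or without any of the 3 PC9 arrays, 1 rise was counted in place of 2. Without probe sets named _x_at or _s_at the counts were 1 higher and 2 lower. With the mean over all probe sets FBLN1 fell by 0.46 and LTBP1 by 0.32.

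Receptors for the members are mostly integrins, with CD44, syndecans and toll-like receptors. Of 27 genes 26 were measured and 16 lay above background, of which 8 rose, 3 fell and 5 did not pass, with a median log2 difference of 0.22. The share that rose was 50.0%, beside 23.8% of all genes above background, and the share that fell was 18.8%, beside 22.2%. The count of rises was 5 without PC9 replicate 2 or without PC9/gef replicate 1. ITGAV, the alpha-v chain that pairs with several beta chains to bind fibronectin, osteopontin and TGFBI, rose by 0.59, or 1.51-fold (limma adjusted p = 0.00085). ITGB5, a partner of it, rose by 0.52, or 1.43-fold (adjusted p = 0.00094). ITGA5, the fibronectin receptor chain, rose by 0.57, or 1.48-fold (adjusted p = 0.014), a call lost without PC9/gef replicate 1 or any of the 3 PC9 arrays (adjusted p = 0.054 to 0.060). TLR2, a toll-like receptor that biglycan can engage, rose by 0.85, or 1.81-fold (adjusted p = 0.035), and lost the call on leaving out any array except PC9/gef replicate 2 (adjusted p = 0.075 to 0.108). The other genes that rose were ITGA2 (log2 difference 0.37), SDC1 (0.34), CD44 (0.32) and ITGB1 (0.11). Those that fell were CALR (-0.42), ITGA3 (-0.37) and CD47 (-0.37). Without probe sets named _x_at or _s_at 7 rose and 1 fell, and ITGB5 rose by 0.79. No receptor that passed the test reached 2-fold.

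**Figure D4:**
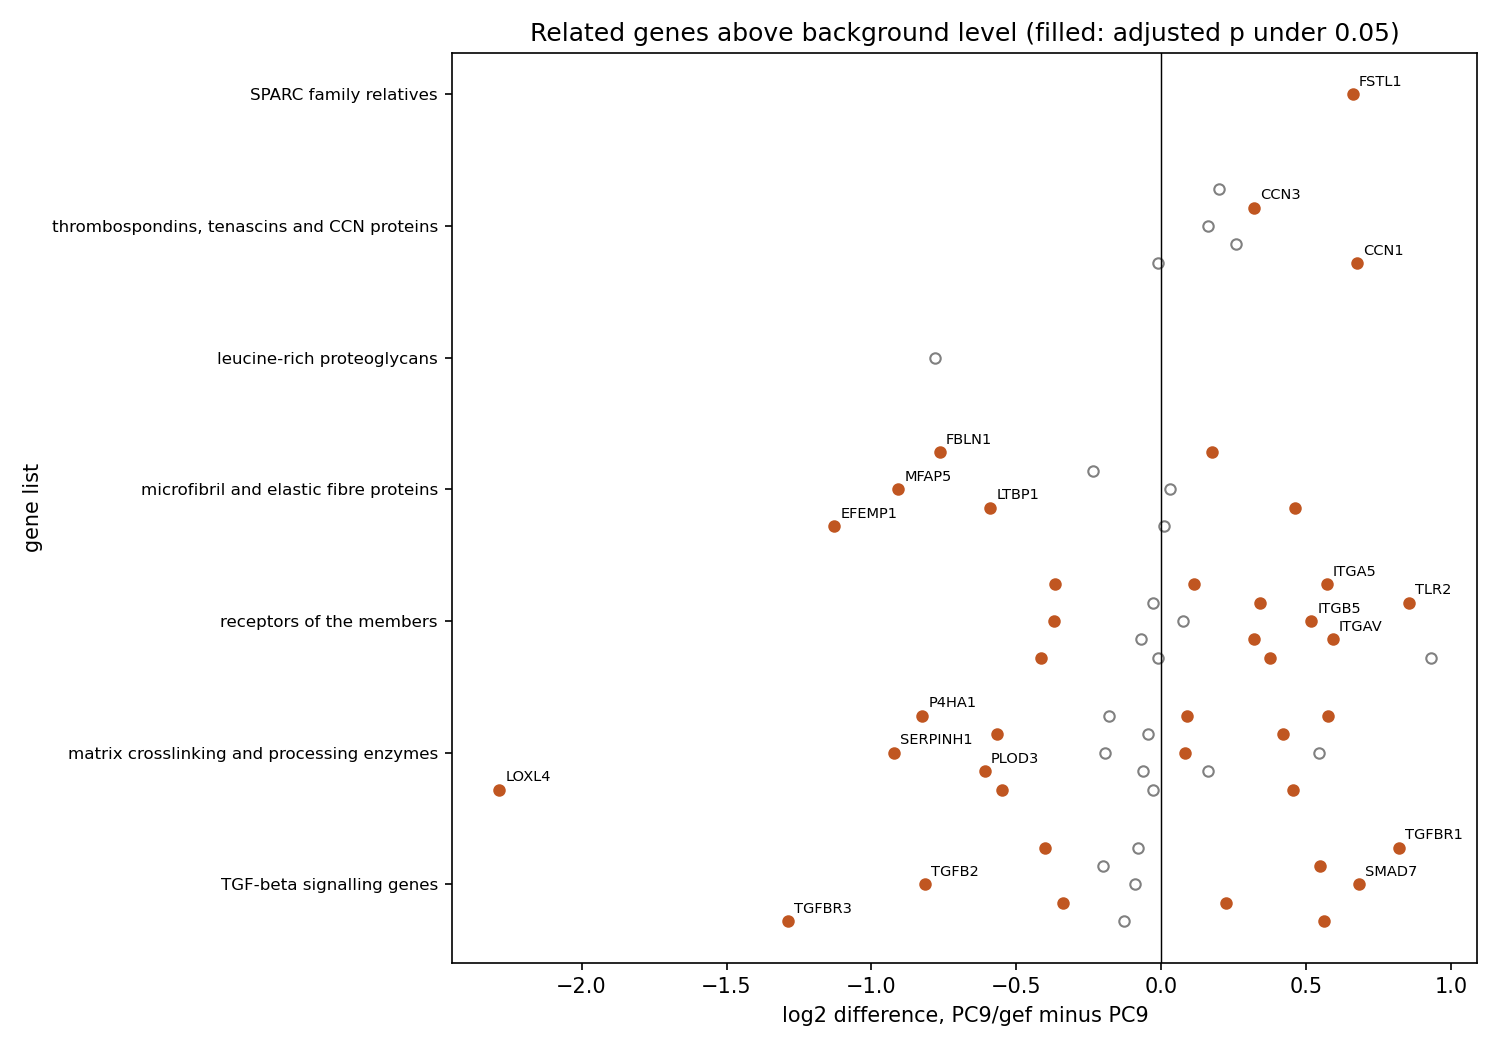
Each point is a related gene above background in at least 1 line, placed by its log2 difference of PC9/gef minus PC9 (horizontal axis) in the row of its list (vertical axis), filled where limma's adjusted p was under 0.05. Among the receptors 8 filled points lie above 0 and 3 below, while LOXL4, at -2.28, lies farthest below 0.

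Enzymes that crosslink, fold or process matrix proteins moved in both directions. Of 23 genes 18 were above background, 5 rose, 6 fell and 7 did not pass, with a median log2 difference of -0.055. That is 27.8% higher and 33.3% lower, beside 23.8% and 22.2% of all genes above background. LOXL4, a lysyl oxidase-like crosslinking enzyme, fell by 2.28, a 4.87-fold difference (limma adjusted p = 0.00013). SERPINH1, the collagen chaperone, fell by 0.92 (adjusted p = 0.0010), P4HA1, a prolyl hydroxylase subunit, by 0.83 (adjusted p = 0.0040) and PLOD3, a lysyl hydroxylase, by 0.61 (adjusted p = 0.00096). The call of P4HA1 was lost without probe sets named _x_at or _s_at (adjusted p = 0.40). The set left differed by -0.00033, within the range of the member probe sets at background, and its level is not reported here. With the mean over all probe sets LOXL4 fell by 1.14 and P4HA1 by 0.41. The 5 that rose were PCOLCE2, XYLT2, PLOD2, TGM2 and P4HA2, by 0.081 to 0.57, and the count was 3 without PC9 replicate 1, PC9 replicate 2 or PC9/gef replicate 3. Without probe sets named _x_at or _s_at 2 rose and 2 fell, and SERPINH1, which has no set of another name, got no value. When all probe sets of a gene were averaged 3 rose.

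TGF-beta signalling, which in many cells raises FN1, TNC, SPARC and TGFBI, was read from 16 genes, of which 15 were measured and 13 lay above background. Of these 5 rose, 4 fell and 4 did not pass, and the median log2 difference was -0.092. The shares were 38.5% higher and 30.8% lower, where all genes above background had 23.8% and 22.2%. TGFBR1, the type I receptor, rose by 0.82, or 1.77-fold (limma adjusted p = 0.00065), and TGFBR3, the co-receptor betaglycan, fell by 1.29, a 2.44-fold difference (adjusted p = 0.00039). The value of TGFBR1 turned to -0.00065 without probe sets named _x_at or _s_at, where it did not pass (adjusted p = 0.14), and was 0.27 with the mean over all its probe sets. The ligand TGFB2 fell by 0.82 (adjusted p = 0.0067), and by 0.36 with that mean. SMAD7, an inhibitory SMAD that the pathway induces, rose by 0.68, or 1.60-fold (adjusted p = 0.018), a call lost without PC9 replicate 2, PC9/gef replicate 1 or PC9/gef replicate 3 (adjusted p = 0.062 to 0.068). Leaving out PC9 replicate 2, PC9/gef replicate 1 or PC9/gef replicate 3 gave 3 rises in place of 5.

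Because several members are abundant in fibroblasts, markers of other cell types were read beside them. Of 12 fibroblast markers 5 were above background and 1 rose, COL1A1, from 7.94 to 8.46 (limma adjusted p = 0.038). The other 4 above background did not pass. These were COL5A1 (3.49 in PC9 and 3.80 in PC9/gef), ACTA2 (2.82 and 2.85), THY1 (2.71 and 2.70) and POSTN. COL1A2, COL3A1, COL6A3, PDGFRA, PDGFRB, FAP and LUM were at background in both lines, as DCN was. The mean over the fibroblast list was 3.01 to 3.05 on PC9 arrays and 3.09 to 3.12 on PC9/gef arrays. Of 7 leukocyte markers measured 2 were above background and 1 rose, ITGAM, from 3.77 (SD 0.019) to 4.93 (SD 0.52, limma adjusted p = 0.043). PTPRC and CD3E were at background, and the list mean was 2.54 to 2.59 on PC9 arrays and 2.68 to 2.89 on PC9/gef arrays. Of 6 endothelial markers 2 were above background and PECAM1 fell, by 2.40 on the log2 scale (adjusted p = 0.00015), while CDH5, VWF, KDR and TEK were at background, and the list mean was 3.59 to 3.60 on PC9 arrays and 3.11 to 3.16 on PC9/gef arrays. Of the markers above background, 20% of the fibroblast and 50% of the leukocyte ones were higher, and 50% of the endothelial ones lower. Of all genes above background 23.8% were higher and 22.2% lower, and the markers are few. The marker calls were not examined under the alternative settings. The part of the marker shifts in the members' differences was not tested.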

How the data were processed

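The series compares 3 PC9 with 3 PC9/gef samples, grouped by their labels, on Affymetrix U133 Plus 2.0 arrays. The log2 values were deposited by the authors, background-corrected, normalized and summarized per probe set. For these steps GC-RMA and GeneSpring GX are given in the supplementary methods, and RMA in the submitters' notes, without versions. Practically the same sorted values recur on each array, so the values were used as deposited, which fixes any overall shift in RNA content at none. No counts lie behind them, and the number of arrays and the signal over background (54.4% of values at or below it) limit precision.

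Of 54675 probe sets, 62 controls were left out. The supplied annotation gave 41091 probe sets 1 gene, 1801 several and 11721 none, and only those of 1 gene represent a gene, by the set with the highest mean. The difference between the lines was fitted in limma 3.58.1 (R 4.3.3, trend and robust off) on all 54613 remaining probe sets, with Benjamini-Hochberg adjustment over 19775 genes and a threshold of 0.05. The script was tested on simulated data. Related genes named are, per list, up to 4 genes above background that passed, taken by size of change, and other genes were named after their values were seen. The members and lists were chosen with earlier results of these data known. ITGB6 and CD68 are annotated with other genes and represent none, and some list members are not reported here. Neighbours were taken from the order of genes in a RefSeq table. Alternatives were median centring, quantile normalization, moderation with trend and robust on, a filter on dim probe sets, the replicate block, leaving out each array, the mean over probe sets and leaving out sets named _x_at or _s_at. Plots were made in matplotlib 3.10.9 (Python 3.11.15).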

Additional observations from a re-analysis of the deposited data

How the results depend on the processing

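Under 13 alternative settings, 114 of 126 member values moved by less than the spread between arrays and 12 moved by more, all on changing which probe sets stand for a gene. Moderation with trend and robust on, the replicate block and the filter on dim probe sets could not change a member's difference. Quantile normalization and median centring hardly could, as practically the same sorted values recur on each array. Stability under these settings was thus fixed in advance. The number of members over 2-fold higher was 4 in every setting but those that changed which probe sets stand for a gene. With the mean over all probe sets it was 3, and FN1 was at 1.32, TNC at 0.72, THBS1 at 0.30 and FBN1 at -0.087, since their probe sets at background enter the mean. SPARC, at 2.48, and SPP1, at -0.13, have 2 sets each, all above background, whose differences are unequal. Without probe sets named _x_at or _s_at it was also 3: FN1 was then read from a set at background (-0.00098), as was FBN1 (-0.00065), while SPARC was at 2.06 and THBS1 at 0.86. Leaving out each array in turn kept SPARC between 2.88 and 2.93, FN1 between 2.23 and 2.37 and TNC between 2.15 and 2.19.

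Of 244 values of 19 named related genes, 221 kept direction and call, 22 lost the call and 1 reversed: TGFBR1 without _x_at and _s_at sets, at -0.00065 on a set at background (limma adjusted p = 0.14). In that setting P4HA1 lost its call at -0.00033. There the counts were 1 higher and 2 lower for microfibril genes, 7 and 1 for receptors, 2 and 2 for enzymes, and 4 and 3 for TGF-beta genes. LTBP1, EFEMP1 and SERPINH1 have no set of another name and got no value. With the mean over all probe sets 3 enzymes were higher.

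The replicate numbers did not pair the samples (correlations of deviations -0.025, 0.016 and 0.047). With the replicate number as a block, the counts that changed by over 1.5 times were those higher: 1 for the thrombospondin, tenascin and CCN list, 0 for microfibril genes, 2 for enzymes and 2 for TGF-beta genes, and CCN3, ITGA5, P4HA1 and SMAD7 passed the threshold no longer (limma adjusted p from 0.061 to 0.11).

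Leaving out each array in turn gave 1 to 3 higher and 0 to 1 lower in the thrombospondin, tenascin and CCN list, the 1 lower without PC9/gef replicate 2. It gave 1 to 2 higher and 4 to 5 lower microfibril genes, 5 to 8 higher and 3 to 4 lower receptors, 3 to 4 higher and 5 to 6 lower enzymes, and 3 to 5 higher and 4 lower TGF-beta genes. The cause was not tested. The 4 member genes read from 1 set above background (TNC, SPOCK1, FBN1 and TGFBI) have no second set above background to compare with it.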
